A study of Mus musculus with 8 samples.

Results

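The EGF receptor family and its ligands were examined in RNA-seq libraries of dorsal epidermis taken from mice at postnatal day 4 (P4). The members were 3 receptor genes (*Egfr*, *Erbb2* and *Erbb3*) and 7 ligand genes (*Areg*, *Ereg*, *Hbegf*, *Tgfa*, *Btc*, *Epgn* and *Nrg1*), chosen by name. Their symbols matched 11 of the 55416 rows of the gene table, because *Nrg1* had a second row of 186 bases that held 0.95 counts in 1 library and 0 in the other 7. That row was left out, and all of the 10 remaining rows were among the 13147 genes with enough counts to be tested.

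The study set 4 libraries labelled MT, from mice that it calls *RoraEKO*, against 4 labelled WT, from control mice. *RoraEKO* mice came from a cross of the *Rora flox/flox* strain with *K14-Cre*, a B6N.Cg-Tg(KRT14-cre) transgene whose keratin 14 promoter is active in the basal cells of stratified epithelia, and *Rora* encodes RORα, a nuclear receptor. Whether the control mice carried the floxed allele or the transgene is not given in the sources used here, nor is the sex of the mice, which numbered 4 per genotype. Control libraries are named A1, B1, C1 and C6 and *RoraEKO* libraries A3, B4, C2 and C3, after their titles, whose letters are not explained in the labels.

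Values are counts per 1000000 counts with TMM scaling (CPM), given in the order of these names. Library totals ran from 17286924 to 26705532 counts. *Rora* itself lay between 153.74 and 308.73 CPM and did not pass the test at the level of the whole gene (edgeR, log2 fold change of -0.11, adjusted p = 0.877), so the genotypes rest on the labels. Controls C1 and C6 expressed *Xist*, at 416 and 527 CPM, whereas the remaining 6 libraries had at most 0.0546 CPM of it and between 15.7 and 24.1 CPM of the Y-linked gene *Ddx3y*. None of the tested markers in 15 cell type lists passed the test in either direction. The summed level of 5 spinous keratinocyte markers ranged from 40409 to 67731 CPM in control and from 82196 to 102750 CPM in *RoraEKO* libraries, mostly from *Krt1* and *Krt10*. The sum of 3 erythroid markers ranged from 31.8 to 215 CPM and from 83.5 to 666 CPM (median log2 fold change of 1.77), that of 5 melanocyte markers from 25.2 to 56.2 CPM and from 17.3 to 33.2 CPM (median of -0.84), and that of 6 dermal fibroblast markers from 1.37 to 6.38 CPM and from 2.51 to 10.4 CPM.

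Receptors of this family are tyrosine kinases of the cell membrane that pair up when a ligand binds. EGFR binds TGFα, amphiregulin, epiregulin, HB-EGF, betacellulin and epigen, ERBB3 binds neuregulins but has little kinase activity of its own, and ERBB2 has no known ligand and acts as a partner of the others. The ligands are made as membrane-bound precursors that metalloproteases cut free. In skin, EGFR signalling is known for its part in keratinocyte growth and survival, in hair follicle development and in wound repair.

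2 of the 10 members passed the cutoffs for a change, which were 0.05 for the adjusted p and 1.5 for the fold, *Btc* as lower and *Epgn* as higher in *RoraEKO*. Over all genes tested, 2.30% passed as higher, 3.22% as lower and 5.51% in either direction. *Btc* and *Epgn* were also the only members whose genotypes did not overlap, which held for 12.9% of all genes tested. Both genes lie in a cluster of EGF receptor ligand genes on chromosome 5. The 250 bases before their annotated start sites are shown because they are where the members that changed could be compared in sequence (GRCm39, 5′ to 3′ on the strand of the gene, with a match to any motif searched in capitals).
*Btc*, chr5:91550884-91551133, minus strand: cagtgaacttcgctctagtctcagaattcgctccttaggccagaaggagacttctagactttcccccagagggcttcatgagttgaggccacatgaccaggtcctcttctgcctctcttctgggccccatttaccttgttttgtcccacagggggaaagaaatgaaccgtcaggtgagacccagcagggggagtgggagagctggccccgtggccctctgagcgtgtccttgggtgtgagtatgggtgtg
*Epgn*, chr5:91175073-91175322, plus strand: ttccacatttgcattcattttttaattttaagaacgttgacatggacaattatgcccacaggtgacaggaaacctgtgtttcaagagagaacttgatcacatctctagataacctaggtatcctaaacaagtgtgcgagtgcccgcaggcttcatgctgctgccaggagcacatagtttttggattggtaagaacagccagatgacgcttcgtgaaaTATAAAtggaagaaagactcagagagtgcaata

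The motifs searched on both strands were AGGTCA, the core element that many nuclear receptors bind, its longer form TAGGTCA, which overlaps it and is close to the element RORα is known to prefer, the AP-1 site TGANTCA, the E-box CACGTG and the TATA box TATAAA. The window before *Btc* held none of them. The window before *Epgn* held 1 match, to TATAAA, a motif found in 11.9% of 21757 such windows of protein-coding genes. AGGTCA was in 13.1% of these windows, TAGGTCA in 2.16%, TGANTCA in 6.18% and CACGTG in 6.26%. Of the other members, *Areg* held TATAAA and *Erbb3*, *Ereg* and *Tgfa* held TGANTCA within 250 bases.

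Within 2000 bases before the start, 71.4% of genes held AGGTCA 1 or more times. *Btc* held 2 matches and *Epgn* 0. Of the members that did not pass the test, *Erbb2* held 2, *Areg*, *Egfr*, *Ereg*, *Hbegf* and *Tgfa* 1 each, and *Erbb3* and *Nrg1* 0. None of the 10 members held TAGGTCA, which 17.9% of genes did. Both *Btc* matches are shown with their surroundings, on the strand of the gene, with the element in capitals.
*Btc*, chr5:91552646-91552675, 1780 bases upstream, element on the opposite strand: gggagattctctTGACCTtgaagagactag
*Btc*, chr5:91552824-91552853, 1958 bases upstream, element on the strand of the gene: aagaactcgggaAGGTCAatgcttaccacc
These matches describe the letters only. Binding of RORα was not measured in these libraries.

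*Btc* (ENSMUSG00000082361, chr5:91505120-91550883 of GRCm39, minus strand), encoding betacellulin, which binds EGFR and ERBB4, fell most. Its level was 80.5, 137, 103 and 198 CPM in the control libraries and 6.85, 3.74, 11.95 and 8.29 CPM in the *RoraEKO* libraries. Each *RoraEKO* library was below each control library. The means were 130 ± 51.3 CPM (SD, n = 4) and 7.71 ± 3.41 CPM (SD, n = 4), which made *Btc* 16.8-fold lower in *RoraEKO* (log2 fold change -4.07, SE 0.444, adjusted p = 0.000535 by the quasi-likelihood test of edgeR). Its log2 fold change ranked 33 from the lowest among the 13147 genes tested. The difference passed in 22 of 22 alternative analyses, with log2 fold changes between -4.30 and -3.77.

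In bulk epidermis, fewer cells that express a gene and less RNA per cell cannot be told apart. The spinous marker sum was higher in every *RoraEKO* library than in every control library. This came from *Krt1*, at 19686 to 38600 CPM in control and 44216 to 52399 CPM in *RoraEKO* libraries, and *Krt10*, at 17165 to 27549 and 34246 to 46176 CPM. The other 3 markers of the list overlapped between genotypes, with log2 fold changes of 0.02 for *Dsg1a*, 0.37 for *Dsc1* and -0.34 for *Krtdap*. The part of the spinous, erythroid and melanocyte markers in the changes of *Btc* and *Epgn* was not tested. Among single markers, *Krt15* of the basal list (log2 fold change of -0.57), *Pmel* of the melanocyte list (-0.84) and *Sox10* of the Schwann cell list (-1.18) were lower in every *RoraEKO* than in every control library, and *Casp14* (0.64) and *Tgm3* (0.46) of the granular list were higher, without passing the test. The basal, granular and Schwann cell lists were of mixed sign, with *Krt14* at 1.124, *Flg2* at -0.88 and *Mbp* at 0.34, and the part of these markers was not tested either. The summed basal markers stood at 1198 CPM in *RoraEKO* B4. They were at 270 to 379 CPM in the other *RoraEKO* libraries and at 247 to 596 CPM in control.

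*Epgn* (ENSMUSG00000035020, chr5:91175323-91183074, plus strand), encoding epigen, an EGFR ligand of low affinity, moved the other way. It was at 1.14, 0.929, 0.521 and 0.863 CPM in the control libraries, from between 11 and 30 counts each. In the *RoraEKO* libraries it was at 5.155, 34.8, 11.2 and 9.64 CPM. Each *RoraEKO* library was above each control library, and B4 was more than 3 times as high as any other. The means were 0.864 ± 0.258 CPM (SD, n = 4) and 15.2 ± 13.3 CPM (SD, n = 4), which made *Epgn* 17.5-fold higher in *RoraEKO* (log2 fold change 4.13, SE 0.608, adjusted p = 0.00409 by the same test). Without B4 the log2 fold change was 3.32 and still passed (adjusted p = 0.00171). Among only the 6 libraries without *Xist*, 2 of them controls, it was 3.92 and did not pass (adjusted p = 0.0614).

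*Ereg* and *Areg*, which lie between *Epgn* and *Btc* on the chromosome, did not pass the test. *Ereg* (ENSMUSG00000029377, chr5:91222157-91241505), encoding epiregulin, was at 10.6, 11.1, 9.04 and 18.02 CPM in control and at 5.68, 50.3, 20.2 and 16.8 CPM in *RoraEKO* libraries. The lowest and the highest of the 8 values were both from *RoraEKO*, and the 4 *RoraEKO* libraries stood in the same order for *Ereg* as for *Epgn*, with A3 lowest and B4 highest. The log2 fold change of *Ereg* was 0.93 with an SE of 0.676 (adjusted p = 0.413), and 0.23 without B4 (adjusted p = 0.864). The antisense gene *Gm19610*, which overlaps it, had 73 counts in all.

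*Areg* (ENSMUSG00000029378, chr5:91287451-91296291) encodes amphiregulin, which keratinocytes make as an autocrine growth factor. Its level was 4.80, 1.26, 1.18 and 1.73 CPM in control and 3.13, 4.07, 2.60 and 3.59 CPM in *RoraEKO* libraries, and control A1 was the highest of the 8. The remaining 3 controls lay below every *RoraEKO* library. With all 8 libraries the log2 fold change was 0.57 (SE 0.469, adjusted p = 0.582), and without control A1 it was 1.26 (adjusted p = 0.0228). *Areg* thus was not called with all 8 libraries, and the fit without control A1 was the 1 of 22 alternatives in which it passed.

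**Figure D1:**
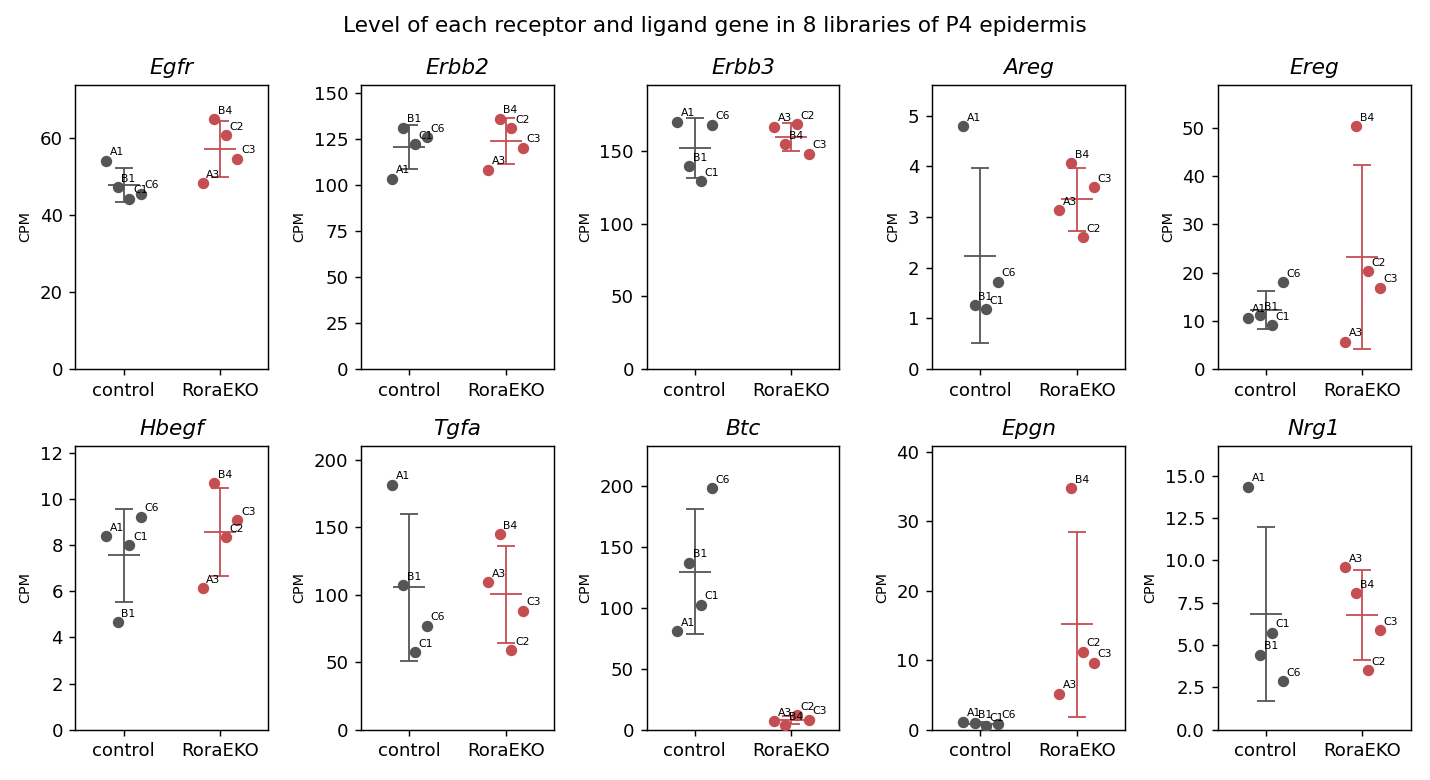
CPM of each member in the 8 libraries, with 1 panel per gene and a linear axis from 0. Points are libraries, and bars give the mean and SD of the 4 libraries per genotype. *Btc* lay between 80.5 and 198 CPM in control and between 3.74 and 11.95 CPM in *RoraEKO* libraries, and *Epgn* between 0.521 and 1.14 CPM and between 5.155 and 34.8 CPM. The other 8 genes overlapped between genotypes.

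The remaining ligands did not pass the test. *Tgfa* (ENSMUSG00000029999, chr6:86172041-86252728), encoding TGFα, a ligand whose loss gives mice a wavy coat, was at 181, 107, 57.4 and 77.0 CPM in control and at 109, 145, 59.1 and 88.1 CPM in *RoraEKO* libraries. It divided the libraries by title letter rather than by genotype, with 107 to 181 CPM in the 4 libraries of letters A and B and 57.4 to 88.1 CPM in the 4 of letter C. The sum of 5 inner root sheath markers was also split that way, at 25075 to 47288 CPM and at 7766.7 to 15348 CPM, and its part in the level of *Tgfa* was not tested. Between genotypes the log2 fold change of *Tgfa* was -0.08 (SE 0.448, adjusted p = 0.955), and its sign changed in 2 of 22 alternatives.

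*Hbegf* (ENSMUSG00000024486, chr18:36637980-36649677) encodes HB-EGF, a heparin-binding ligand known from the edges of healing wounds. It was at 8.37, 4.64, 8.0004 and 9.23 CPM in control and at 6.13, 10.7, 8.34 and 9.09 CPM in *RoraEKO* libraries, with a log2 fold change of 0.18 (SE 0.276, adjusted p = 0.793). *Nrg1* (ENSMUSG00000062991, chr8:32303906-33374825), which encodes neuregulin 1, a ligand of ERBB3 and ERBB4 rather than of EGFR, was at 14.35, 4.43, 5.73 and 2.85 CPM in control and at 9.59, 8.05, 3.52 and 5.89 CPM in *RoraEKO* libraries. The highest and the lowest values of *Nrg1* were both from controls. Its log2 fold change was -0.02 (SE 0.576, adjusted p = 0.991), with the opposite sign in 7 of 22 alternatives. Without control A1, its highest library, it was 0.64 and did not pass (adjusted p = 0.349, edgeR).

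None of the 3 receptor genes passed the test, and their SEs on the log2 scale, 0.105 to 0.113, were below those of the ligands, 0.276 to 0.676. *Egfr* (ENSMUSG00000020122, chr11:16702198-16868158) was at 53.9, 47.1, 44.2 and 45.4 CPM in control and at 48.1, 64.7, 60.7 and 54.5 CPM in *RoraEKO* libraries. Control A1 overlapped the *RoraEKO* range, while the other 3 controls were below it. The log2 fold change was 0.26 with an SE of 0.113 (adjusted p = 0.319), and it was positive in 22 of 22 alternatives without passing in any. *Erbb2* (ENSMUSG00000062312, chr11:98303203-98328542) was at 103, 131, 122 and 126 CPM in control and at 108, 136, 131 and 120 CPM in *RoraEKO* libraries. *Erbb3* (ENSMUSG00000018166, chr10:128403392-128425811) was at 171, 140, 130 and 169 CPM in control and at 167, 155, 169 and 148 CPM in *RoraEKO* libraries. For *Erbb2* the genotypes covered nearly the same range, and for *Erbb3* the *RoraEKO* values all lay within the wider control range, with log2 fold changes of 0.04 (SE 0.105, adjusted p = 0.930) and 0.07 (SE 0.108, adjusted p = 0.863). *Mien1* overlaps *Erbb2* on the other strand with 7079 counts in all, and whether the counting used strand is not given in the sources used here.

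Within each title letter, *Btc* and *Epgn* kept their direction. The difference in log2 CPM between *RoraEKO* and control was -3.54, -5.16 and -3.83 for *Btc* and 2.09, 5.09 and 3.78 for *Epgn* in letters A, B and C. Letters A and B had 1 library per genotype and letter C had 2, so no test was made within a letter. In letter C both controls expressed *Xist* and neither *RoraEKO* library did, so genotype and sex cannot be told apart there. For 7 of the other 8 members, the difference was negative in letter A and positive in letters B and C. How many of all genes tested had this pattern was not determined, so it is not read as a trait of the family. *Ereg* showed the widest spread of these 7, at -0.89, 2.16 and 0.53. *Erbb2*, the exception, was at 0.06, 0.05 and 0.02.

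Because longer transcripts collect more reads, levels of different genes were set side by side as CPM per kb of annotated exons. In control epidermis, *Btc* had the highest mean of the members at 28.5 ± 11.3 CPM per kb (SD, n = 4), followed by *Erbb3* at 24.1 ± 3.26, *Erbb2* at 22.3 ± 2.22 and *Tgfa* at 15.5 ± 7.97 CPM per kb, and the ranges of these 4 genes overlapped. *Egfr* came next at 4.12 ± 0.377 CPM per kb, with each library below every value of those 4 genes. *Egfr* overlapped with *Ereg* at 2.74 ± 0.893, *Ereg* with *Areg* at 1.83 ± 1.41 and *Areg* with *Hbegf* at 1.48 ± 0.394 CPM per kb. *Epgn* at 0.478 ± 0.143 and *Nrg1* at 0.410 ± 0.308 CPM per kb overlapped with each other and lay below every value of the rest. With the longest transcript as the length, *Nrg1* was at 0.967 ± 0.727 CPM per kb, in a range of 0.403 to 2.03 that also overlapped with those of *Areg* and *Hbegf*. *Hbegf* was then at 2.62 ± 0.697 CPM per kb, with a mean above that of *Areg*, and *Egfr* at 4.66 ± 0.426 CPM per kb no longer overlapped with *Ereg*. The order of the genes below the first 4 thus depends on the length used.

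In *RoraEKO* epidermis, *Btc* was at 1.69 ± 0.749 CPM per kb, in a range that overlapped with that of *Hbegf* at 1.67 ± 0.370 CPM per kb. With the longest transcript as the length they were at 1.91 and 2.96 CPM per kb, and the ranges still overlapped. *Epgn* reached 8.41 ± 7.37 CPM per kb, in a range of 2.85 to 19.3 that took in that of *Egfr* (4.16 to 5.60 CPM per kb). *Tgfa*, at 14.7 ± 5.28 CPM per kb, was the ligand with the highest mean. The remaining members were *Erbb3* at 25.3, *Erbb2* at 22.9, *Ereg* at 5.22, *Egfr* at 4.93, *Areg* at 2.74 and *Nrg1* at 0.405 CPM per kb. The mean of *Ereg* was above that of *Egfr* through B4, at 11.3 CPM per kb, while *Ereg* in the other 3 libraries was at 1.28, 4.55 and 3.78 CPM per kb, each below *Egfr* in the same library. With the longest transcript *Egfr* was at 5.57 CPM per kb, above the mean of *Ereg*.

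The make-up of the ligand transcripts, each ligand as a percent of the summed CPM per kb of the 7, is a description with no test of its own. *Btc* made up 33.0%, 59.0%, 62.4% and 69.4% of the sum in the control libraries and 5.80%, 1.41%, 10.1% and 6.30% in the *RoraEKO* libraries. *Epgn* was between 0.762% and 1.18% in control and at 10.99%, 32.9%, 23.9% and 18.5% in *RoraEKO* libraries. *Tgfa* took 30.3% ± 13.8 (SD, n = 4) and 43.9% ± 12.7 (SD, n = 4), *Ereg* 5.36% ± 0.876 and 13.7% ± 6.42, and *Areg* 3.57% ± 2.51 and 8.48% ± 2.06 in control and *RoraEKO*. *Hbegf* and *Nrg1* stayed at or below 6.27% in every library, or at or below 9.08% with the longest transcript as the length.

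Shares move together because they add up to the whole, so the sum itself is needed beside them. It was 50.9 ± 11.03 CPM per kb (SD, n = 4) in control and 34.8 ± 15.8 CPM per kb (SD, n = 4) in *RoraEKO*, with overlapping ranges of 36.1 to 62.7 and 26.0 to 58.5 CPM per kb. The highest *RoraEKO* sum was that of B4, the library with the most *Epgn* and *Ereg* and the least *Btc*. Per kb, *Btc* exceeded *Epgn* 27.985-, 58.5-, 78.2- and 91.1-fold in the control libraries. In *RoraEKO*, *Epgn* exceeded *Btc* 1.89-, 23.4-, 2.37- and 2.93-fold.

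**Figure D2:**
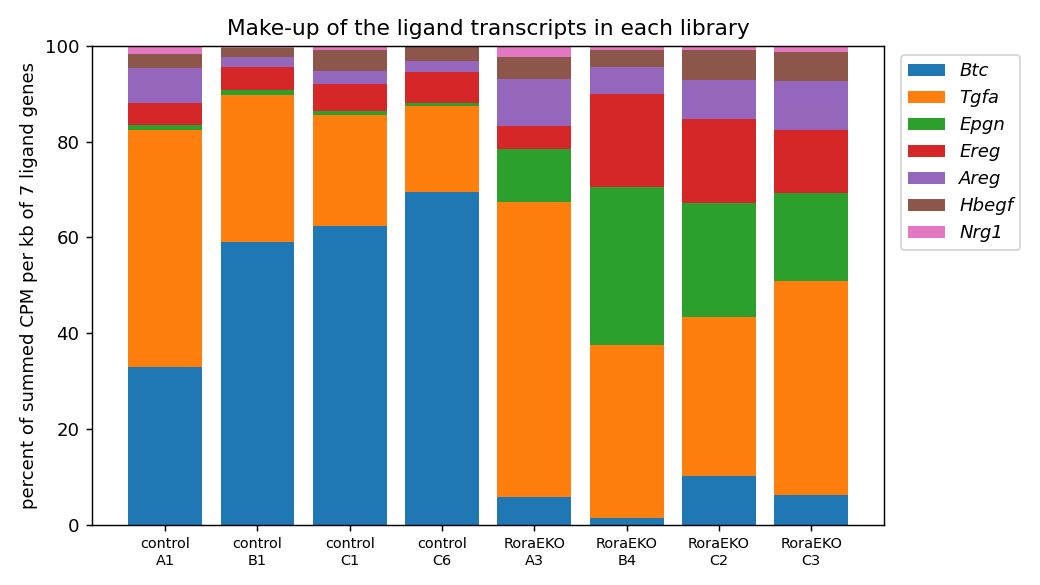
Stacked bars of the percent that each of 7 ligand genes takes of their summed CPM per kb of exons, with 1 bar per library. *Btc* ran from 33.0% to 69.4% in the 4 control libraries and from 1.41% to 10.1% in the 4 *RoraEKO* libraries, and *Epgn* from 0.762% to 1.18% and from 10.99% to 32.9%.

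The start sites of *Epgn* and *Btc* lie 376 kb apart. *Epgn*, *Ereg* and *Areg* are on the plus strand, with the starts of *Ereg* and *Areg* 46.8 and 112 kb from that of *Epgn*, and *Btc* is on the minus strand, its body beginning 209 kb beyond the end of *Areg*. Within 500 kb of the cluster 7 genes were tested, of which *Epgn* passed as higher and *Btc* and *Parm1* as lower. *Parm1*, which encodes a membrane mucin-like protein, changed far less than *Btc* (log2 fold change of -0.61, adjusted p = 0.0469), and it passed in 7 of 22 alternatives and in 0 of the 8 that left out a library. *Mthfd2l*, the nearest tested gene before *Epgn* and a mitochondrial folate enzyme, had a log2 fold change of -0.09 (adjusted p = 0.907), and *Rassf6* one of -0.03 (adjusted p = 0.987). The other annotated genes between *Epgn* and *Btc*, *Gm19610*, *Gm23092* and *Gm19619*, had too few counts to be tested.

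**Figure D3:**
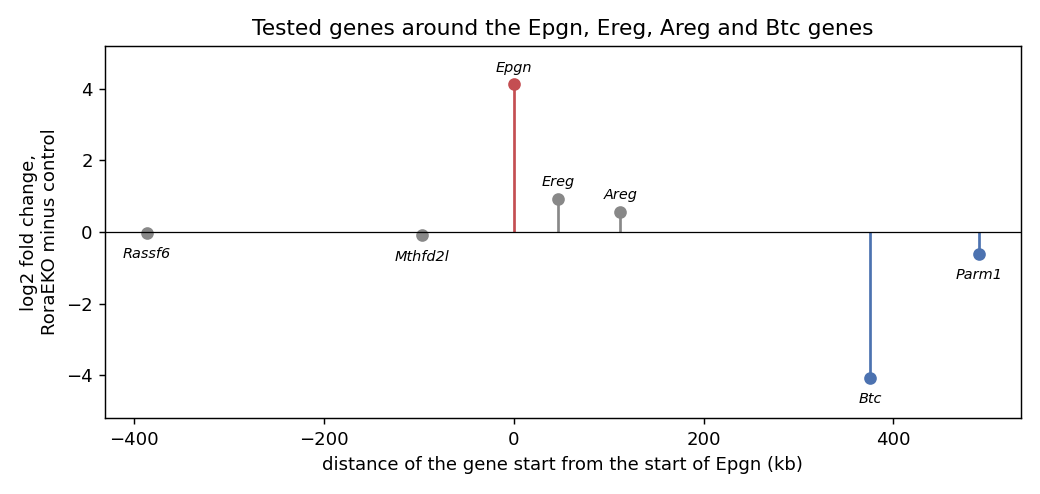
Log2 fold change (*RoraEKO* minus control) of the 7 tested genes around the ligand cluster against the distance of their start from that of *Epgn* in kb. *Epgn*, at 4.13, and *Btc*, at -4.07, stand at either end of the cluster, with *Ereg* at 0.93 and *Areg* at 0.57 between them, and *Rassf6* and *Mthfd2l* near 0.

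Among the members the median log2 fold change was 0.12, beside -0.04 over all genes tested. It was 0.07 for the 3 receptors, which ranged from 0.04 to 0.26, and 0.18 for the 7 ligands, which ranged from -4.07 to 4.13.

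Of 60 other genes of the pathway, listed by their roles, 56 were tested, and 2 passed as higher and 0 as lower. The share of all genes tested that passed was 5.51%. Their median log2 fold change was 0.05. The genotypes did not overlap for 7 of the 56, beside 12.9% of all genes tested.

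Of the family members outside the 10, *Egf*, *Nrg2* and *Nrg4* were tested and none passed. *Egf* was between 0.273 and 0.5255 CPM in control and between 0.4931 and 1.11 CPM in *RoraEKO* libraries (log2 fold change of 1.0003, adjusted p = 0.203). *Erbb4*, the remaining receptor, had 0 counts in all 8 libraries, which allows up to 0.113 to 0.196 CPM per library (3 counts, counting error only). *Nrg3* had 2 counts, in 1 control library.

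Of 7 genes of ligand shedding, 1 passed. *Timp3* (ENSMUSG00000020044), which encodes an inhibitor of metalloproteases, ADAM17 among them, was at 11.95, 13.1, 12.5 and 13.5 CPM in control and at 50.7, 32.1, 57.2 and 71.6 CPM in *RoraEKO* libraries. The control values lay close together, and the lowest *RoraEKO* value was more than 2 times the highest control value. *Timp3* was 4.14-fold higher in *RoraEKO* (log2 fold change 2.05, SE 0.247, adjusted p = 0.000749) and passed in 22 of 22 alternatives. *Adam17*, the main sheddase of TGFα, amphiregulin and HB-EGF, had a log2 fold change of -0.43 (adjusted p = 0.408), and *Adam10*, which is known to cut betacellulin, one of 0.05 (adjusted p = 0.895). *Adam12*, a metalloprotease that can also shed HB-EGF, was at 2.21, 3.17, 1.75 and 5.48 CPM in control and at 1.17, 0.740, 1.59 and 1.55 CPM in *RoraEKO* libraries, without overlap. It did not pass (log2 fold change of -1.32, adjusted p = 0.101), but passed as lower in 3 of 22 alternatives, which were DESeq2, the exact test and the likelihood ratio test.

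None of 20 genes that relay the signal, from *Shc1* and *Grb2* to the kinases of the ERK and AKT pathways, passed both cutoffs. *Stat3*, a transcription factor activated by cytokine receptors and by EGFR, came nearest. It was at 57.4, 84.3, 78.1 and 84.0 CPM in control and at 113, 107, 119 and 106 CPM in *RoraEKO* libraries, without overlap. Its adjusted p was 0.0488 and its fold 1.47, short of the fold cutoff. The log2 fold changes of the 20 genes ran from -0.34 to 0.65.

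Of 14 tested genes of feedback and receptor turnover, 1 passed. *Dusp6*, which encodes a phosphatase of ERK and is induced by ERK activity, was at 3.92, 2.19, 2.65 and 2.85 CPM in control and at 4.89, 7.15, 6.26 and 5.49 CPM in *RoraEKO* libraries, without overlap. It was 2.04-fold higher in *RoraEKO* (log2 fold change 1.03, SE 0.206, adjusted p = 0.0251), but passed in 2 of the 8 analyses that left out a library, with an adjusted p of up to 0.0832 in the others, and not with *Xist* as a covariate (adjusted p = 0.134). *Lrig1*, a membrane protein that promotes the breakdown of EGFR, was lower in all *RoraEKO* than in all control libraries without passing (log2 fold change of -0.44, adjusted p = 0.0758). *Errfi1*, an inhibitor of the EGFR kinase, had a log2 fold change of 0.04.

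None of 12 tested genes that respond to EGFR or ERK signalling passed, and their median log2 fold change was 0.24. *Ier3*, an immediate early gene, was between 8.93 and 19.9 CPM in control and between 18.2 and 67.8 CPM in *RoraEKO* libraries, highest in B4 as *Epgn* was (log2 fold change of 1.49, adjusted p = 0.0614), and it passed in 7 of 22 alternatives. *Egr1*, an immediate early transcription factor, had a log2 fold change of 0.29 (adjusted p = 0.751), and *Myc* one of -0.64 (adjusted p = 0.115), with no overlap between genotypes for *Myc*. With the title letter as a block, both *Ier3* (log2 fold change of 1.41, adjusted p = 0.0398) and *Myc* (log2 fold change of -0.68, adjusted p = 0.0299) passed.

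**Figure D4:**
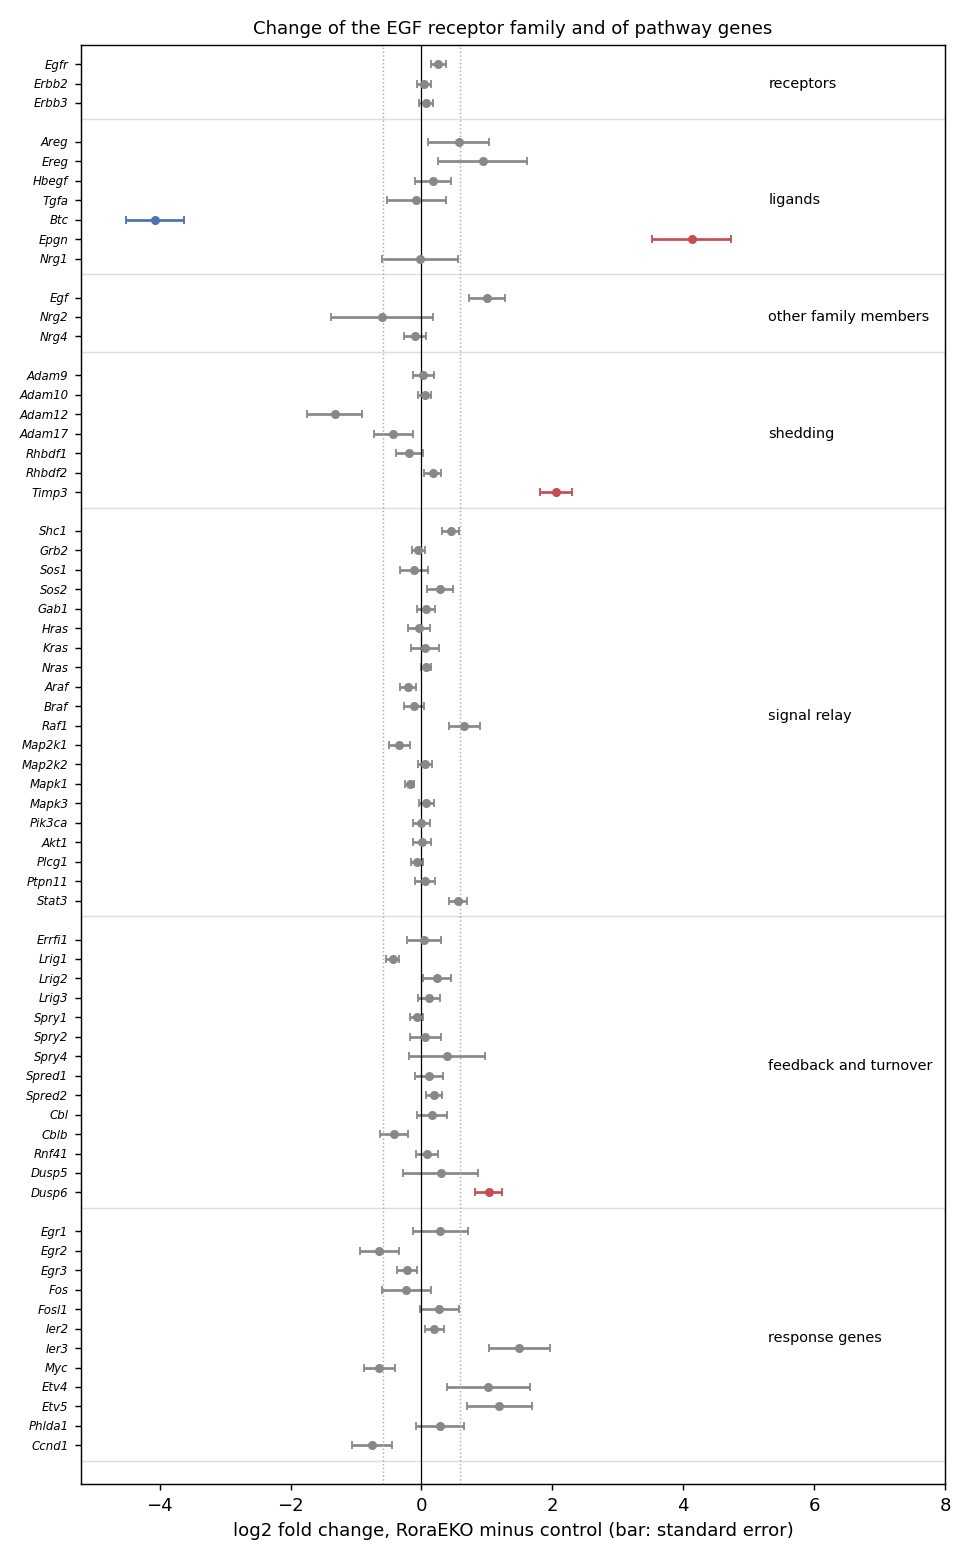
Log2 fold change (*RoraEKO* minus control) of the members and of the tested pathway genes, by role. Bars are standard errors of the difference, dotted lines mark the fold cutoff of 1.5, and colours mark genes past both cutoffs. *Btc*, at -4.07, and *Epgn*, at 4.13, lie apart from the rest, whose values run from -1.32 (*Adam12*) to 2.05 (*Timp3*).

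The genes whose profile over the 8 libraries was most like that of *Btc* and of *Epgn* were found by the root mean square difference of centred log2 CPM, as a description. For *Btc* these were *Ptprm*, a receptor tyrosine phosphatase, at 0.307, *Grin2d*, a subunit of NMDA glutamate receptors, at 0.368, and *Vtn*, which encodes vitronectin, at 0.394, where the median over all genes was 2.13. *Ptprm* lay between 1.99 and 4.43 CPM in control and at or below 0.150 CPM in *RoraEKO* libraries, *Grin2d* between 6.78 and 9.80 and between 0.326 and 0.867 CPM, and *Vtn* between 1.60 and 3.19 and at or below 0.193 CPM.

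For *Epgn* they were *Vmn2r3*, annotated as a vomeronasal receptor, at 0.240, *Krt16*, a keratin of stressed and wounded epidermis, at 0.593, and *Fgf3*, a fibroblast growth factor, at 0.595, where the median over all genes was 2.03. *Vmn2r3* was at 0.0381 CPM or less in control and between 0.653 and 3.66 CPM in *RoraEKO* libraries. It had 1 count in control A1 and 0 in the other controls. In *RoraEKO*, *Ptprm* had 1 to 3 and *Vtn* 0 to 4 counts per library. The distances of *Vmn2r3*, *Ptprm* and *Vtn* thus depend in part on the prior count of 2 used for log2 CPM. *Krt16* lay between 96.2 and 193 CPM in control and between 1030 and 2610 CPM in *RoraEKO* libraries, and *Fgf3* between 0.150 and 0.952 and between 2.48 and 7.52 CPM. *Vmn2r3*, *Krt16* and *Fgf3* were all highest in B4, the library in which *Epgn*, *Ereg* and the sum of the basal markers were also highest. The part of the basal markers in these levels was not tested.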

How the data were processed

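RNA from P4 dorsal epidermis was sequenced from poly(A)-selected libraries. Per the labels and the methods of the study, the authors used bcl2fastq 2.20.0.422, trimmed reads (Skewer), aligned them to GRCm39 (STAR 2.5.3a) and deposited expected counts per gene from RSEM, with no scaling. The annotation release is not given in the sources used here. Between 2.79% and 3.15% of values per library were not whole.

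The members and gene lists were chosen with earlier results of these data known. Expected counts were rounded, filtered with filterByExpr and scaled with TMM factors, and the 4 *RoraEKO* libraries were compared with the 4 controls by the quasi-likelihood test of edgeR 4.0.16 (legacy form) in R 4.3.3, without covariates and with Benjamini-Hochberg adjustment over 13147 genes. SEs of log2 fold changes were taken from the 2 group means of log2 CPM, with a prior count of 2. Symbols, lengths and start sites came from GENCODE mouse release 39, in which 54749 of 55416 identifiers were found, and sequences from the GRCm39 genome. Alternatives changed the scaling, the test (DESeq2 1.42.0 among them), the filter, the cutoffs or the covariates, or left out each library in turn. A fit to the 6 libraries without *Xist* was chosen after seeing the data. Each test was also run on simulated counts, with the filter of the main fit and without covariates. The fits with other scaling, filters or covariates, or with fewer libraries, were not simulated. Named genes were all members, pathway genes past the cutoffs, the 3 nearest profiles of each member past them, the neighbours of the cluster and the genes that check the labels. *Stat3*, *Lrig1*, *Ier3*, *Myc*, *Egr1*, *Errfi1*, *Adam17*, *Adam10*, *Adam12* and the cell type markers were named after their values were seen, for their size or known role.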

Additional observations from a re-analysis of the deposited data

Results flagged for a closer look

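*Areg* in control A1, at 4.80 CPM, stood apart from the other 3 control libraries, which lay between 1.18 and 1.73 CPM. The gap to the nearest control was 0.85 of the range of the 4. The same check was made in 24 groups of 4 libraries, of which 1 stood out, and chance marks about 1 in 20. Without A1, *Areg* passed as higher in *RoraEKO* (log2 fold change of 1.26, adjusted p = 0.0228, edgeR).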

How the results depend on the processing

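*Btc* kept its direction and passed in 22 of 22 alternatives, and *Epgn* in 21 of 22. With only the 6 libraries without *Xist*, 0 members passed as higher, because *Epgn* had an adjusted p of 0.0614, and the counts over all genes were 147 higher and 167 lower. With 1 library left out, 1 to 2 members passed as higher, the second being *Areg* without control A1, and the counts over all genes ran from 174 to 383 higher and from 283 to 513 lower. DESeq2 called 478 genes higher and 553 lower, and *Xist* as a covariate 174 and 286. The split of 302 higher and 423 lower became 245 and 482 with library size alone and 389 and 405 with all genes of at least 1 count, while the median of all genes stayed within 0.1 of that of the main scaling on the log2 scale.

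Pathway genes past the cutoffs as higher numbered 2 here, 1 to 4 with 1 library left out, 4 with DESeq2, with all genes of at least 1 count and with the title letter as a block, and 1 with *Xist* as a covariate and with the 6 libraries. As lower, beside 0 here, 1 passed with DESeq2 and with both the exact and the likelihood ratio test of edgeR, which was *Adam12*, and 1 with the title letter block, which was *Myc*. With the longest transcript as the length, the mean shares of *Btc* and *Epgn* were 51.3% and 0.75% in control and 5.28% and 17.4% in *RoraEKO*. 5 of 14 mean shares moved by more than 1 SD, to 4.33% for *Ereg* in control and to 4.29% and 7.24% for *Hbegf* and 1.56% and 2.33% for *Nrg1* in control and *RoraEKO*. Of 396 tested fold changes of 18 named genes under the 22 alternatives, 358 kept their call, 14 gained it and 24 lost it, and none that was called here changed sign. The titles share no replicate number between genotypes, only the letters. With the title letter as a block, 420 genes passed as higher and 579 as lower, and the members that passed were again *Epgn* and *Btc* (adjusted p = 0.00127 and 0.000307, edgeR). At these depths a gene below about 0.113 to 0.196 CPM cannot be told from 0.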
